A study of Mus musculus with 2 samples.

Results

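The neurons described here were chosen by genes of embryonic sensory neurons that include Neurod1 and Ppp1r17, and some members had UMIs of neither. A cell counted as a neuron when it had at least 1 UMI (unique molecular identifier, 1 captured transcript) of at least 3 of Tubb3, Elavl3, Elavl4, Stmn3 and Ina, and as a member when it also had at least 1 UMI of at least 3 of the 7 genes Neurod1, Ppp1r17, Nhlh1, Scn9a, Thsd7b, Kcnmb2 and Pex5l. Both rules were applied to cells with more than 2000 and fewer than 9000 detected genes and less than 10% mitochondrial UMIs. They gave 314 members among 719 neurons, 6272 filtered cells and 9862 deposited cells. The remaining 405 neurons served as the comparison.

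Single-cell RNA sequencing was carried out on sorted eYFP-positive cells of mouse embryos at E13.5, with 1 control library and 1 mutant library, each from 3 pooled embryos. Embryos of both genotypes carried Isl1-Cre, in which Cre follows the Isl1 promoter, and the R26R-eYFP reporter, so eYFP marks cells that express Isl1 or descend from such cells. Mutant embryos also carried a Cre-dependent Pik3caH1047R allele, which encodes an activated form of the catalytic PI3K subunit. The samples are labelled pharyngeal arch, whereas the dissection took the whole body above the liver, so ganglia of the head, neck and upper trunk could all contribute neurons. With 1 library per genotype there is no replicate error: no test was possible, every interval is a 95% interval for counting error only, and genotype cannot be told apart from litter or library.

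Neurons of the cranial and dorsal root ganglia arise from neural crest and from ectodermal placodes. Neurog1 or Neurog2 starts their differentiation, Neurod1 and the related bHLH factors Nhlh1 and Nhlh2 act in newborn neurons, and Isl1 and Pou4f1 (Brn3a) then direct the sensory programme. Somatic sensory neurons of the trigeminal and dorsal root ganglia keep Pou4f1. Later, Runx1 marks the nociceptive lineage, in which the sodium channels Scn9a (Nav1.7) and Scn10a (Nav1.8) and the capsaicin receptor Trpv1 are expressed. Among the other genes of the rule, Ppp1r17 encodes a phosphatase inhibitor, Kcnmb2 an accessory subunit of calcium-activated potassium channels and Pex5l a regulator of HCN channels.

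The libraries differed in sex. Cells were called male-like where any of the Y-linked genes Eif2s3y, Kdm5d, Uty and Ddx3y was detected without Xist, female-like where Xist was detected without these, and unassigned in all other cases. Of the 112 control members, all but 1, which was unassigned, were female-like, whereas the 202 mutant members held 84 female-like, 85 male-like and 33 unassigned cells. Xist was found in 55.9% of the mutant members, more than the 41.6% that were female-like. Most of the unassigned mutant members thus had UMIs of both Xist and a Y-linked gene. Some genotype values are therefore also given with the female-like and the male-like mutant members each set against the female-like control members. The libraries shared 28 barcodes, of which 0 belonged to members. Members held 2841079 UMIs in the control library and 4469388 in the mutant library, with medians of 23958 and 19325 UMIs per cell, and the remaining neurons were shallower, with medians of 15638 and 12498. Transcripts of other cell types were present too: 62 of 112 control members (55.4%) and 89 of 202 mutant members (44.1%) had UMIs of at least 3 genes of at least 1 list for another cell type. Doublets were not removed, and their part in the values was not tested.

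Members made up 112 of 224 control neurons (50%, 43.3 to 56.7) and 202 of 495 mutant neurons (40.8%, 36.4 to 45.3). Because a deeper cell shows more genes, every cell was also thinned to 5000 UMIs before the rules were applied, which gave 76 of 173 control neurons (43.9%) and 141 of 424 mutant neurons (33.3%). The share was thus lower in the mutant library at both depths, although the counting intervals overlapped at each. With at least 5 rule genes the shares were 28.6% and 28.3%, and this gap was absent. By sex class, members were 84 of 247 female-like and 85 of 170 male-like mutant neurons, against 111 of 216 female-like control neurons. The clearly lower share was thus in the female-like class. Of all filtered cells, members were 4.02% in the control and 5.79% in the mutant library, since neurons themselves were 8.05% of 2783 control cells and 14.2% of 3489 mutant cells.

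**Figure D1:**
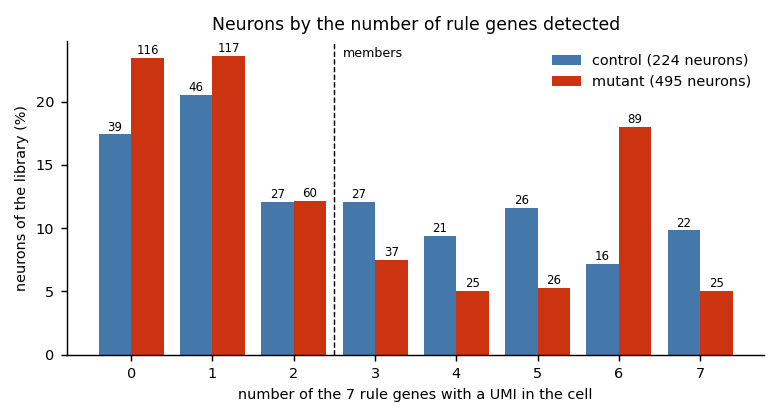
Neurons by the number of the 7 rule genes with a UMI in the cell (x axis), as a percent of the neurons of each library (y axis, bars from 0, with the number of neurons above each bar). Members lie to the right of the dashed line. The mutant library has a peak of 89 neurons at 6 genes, where the control library has 16.

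The number of rule genes per neuron had a different shape in each library. Control neurons with 3, 4, 5, 6 and 7 of the genes numbered 27, 21, 26, 16 and 22. Mutant neurons with the same numbers of genes were 37, 25, 26, 89 and 25. Members with 5 to 7 genes were 64 of 112 (57.1%) in the control library and 140 of 202 (69.3%) in the mutant library. In 79 of the 89 mutant neurons at 6 genes (88.8%) the missing gene was Scn9a, against 9 of 16 in the control library. UMIs of Neurod1 and Ppp1r17 together were found in 38 control members (33.9%) and 139 mutant members (68.8%), and neither gene was found in 33 (29.5%) and 11 (5.45%), so the gene pair of the label was found together in most mutant members but in a minority of control members.

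The rule fixes that its genes are high in members, and their levels are given only as a description. Levels are UMIs of a gene summed over the cells and expressed per 1000000 UMIs of those cells (CPM). Neurod1 stood at 284 CPM in control and 478 CPM in mutant members, against 16.5 and 27.5 CPM in the remaining neurons. Ppp1r17 stood at 124 and 364 CPM in members and at 3.76 and 8.68 CPM in the remaining neurons. Nhlh1 was at 219 and 319 CPM in members against 9.41 and 31.7 CPM. Thsd7b, a thrombospondin-domain gene, was at 2086 and 1434 CPM in members against 63.0 and 18.9 CPM. Scn9a had the largest ratio between the libraries among the rule genes, at 474 CPM in control and 107 CPM in mutant members. Kcnmb2 was at 456 and 522 CPM and Pex5l at 291 and 162 CPM in members. Neurons just outside and just inside the threshold shared some levels and not others: with 2 and 3 rule genes, Neurod1 stood at 38.9 and 33.8 CPM in the control library and at 87.4 and 39.1 CPM in the mutant library, Isl1 at 218 and 218 CPM and at 117 and 195 CPM, and Pou4f1 at 15.1 and 62.5 CPM and at 28.5 and 85.6 CPM.

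Proximal promoters of the rule genes were searched for the E-box CAGATG, a sequence of the type bound by Neurod1 and other neurogenic bHLH factors, in windows of 250 bases before to 50 bases after each start site, on both strands. RefSeq promoters (GRCm38.p6) were at hand for 5 of the 7 genes, and 1 of these 5 windows held it, that of Nhlh1. The motif was present in 17.2% of all 32817 promoter windows, so the rule genes do not stand out. The Nhlh1 match lies 203 bases before the start site, at chr1:172057784-172057809 on the minus strand, and is shown because Nhlh1 is itself one of the bHLH genes of the rule; capitals mark the E-box.
Nhlh1: gcatggagaaCAGATGtccctgctcc

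Genes of sensory ganglia were higher in members than in the remaining neurons. Of a list of 16 genes used across sensory ganglia, 14 reached 50 CPM in at least 1 of the 4 sums, and 11 of these were at least 2-fold higher in members in both libraries, with 0 at least 2-fold lower. Over all genes outside the rule, 207 of 5284 (3.92%) were at least 2-fold higher and 130 (2.46%) at least 2-fold lower in both libraries. In the control library alone 8.82% were higher and 5.22% lower, and in the mutant library alone 5.3% and 5.47%. The median log2 ratio of members over remaining neurons for the list was 1.83 in the control and 2.48 in the mutant library, against -0.05 and -0.06 for all genes. Since the same cells were chosen by sensory genes, these figures describe the members and support nothing further. Of the 12 genes of the trigeminal and dorsal root ganglia, 6 of the 7 tested were at least 2-fold higher in both libraries, as were 4 of 8 tested epibranchial genes and 4 of 9 tested vestibular and cochlear genes, lists that share members such as Pou4f1, Tlx3 and Eya2.

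Genes of olfactory and vomeronasal neurons were also higher in members, so the sensory ganglion label does not cover everything that these neurons express. Of the 8 tested olfactory genes, 5 were at least 2-fold higher in both libraries and 0 lower, with 8 of 8 higher in the control library and a list median of 3.06, above the 1.83 of the pan-sensory list. In the mutant library the olfactory median was 1.26. UMIs of at least 3 of the 12 olfactory genes were found in 101 of 112 control and 188 of 202 mutant members, against 95 and 174 for at least 3 of the 16 pan-sensory genes, and in 42 of 112 and 136 of 293 remaining neurons. The list includes genes that many neurons express, such as the growth cone gene Gap43 (1611 and 1214 CPM in members against 698 and 507 CPM) and Ebf1 (1497 and 1050 CPM against 407 and 369 CPM). Gng8, a G protein subunit of immature vomeronasal and olfactory neurons, was at 135 and 40.7 CPM against 4.23 and 4.12 CPM. Lhx2, which olfactory neurons need, was at 174 CPM in control members against 16.9 CPM, but at 41.8 against 55.7 CPM in the mutant library. Omp, the marker of mature olfactory neurons, was at 0.35 and 0.45 CPM. Of 12 retinal genes only Isl1 and the synuclein gene Sncg were tested, and both were higher in both libraries, with Sncg at 1370 and 381 CPM against 175 and 20.6 CPM.

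**Figure D2:**
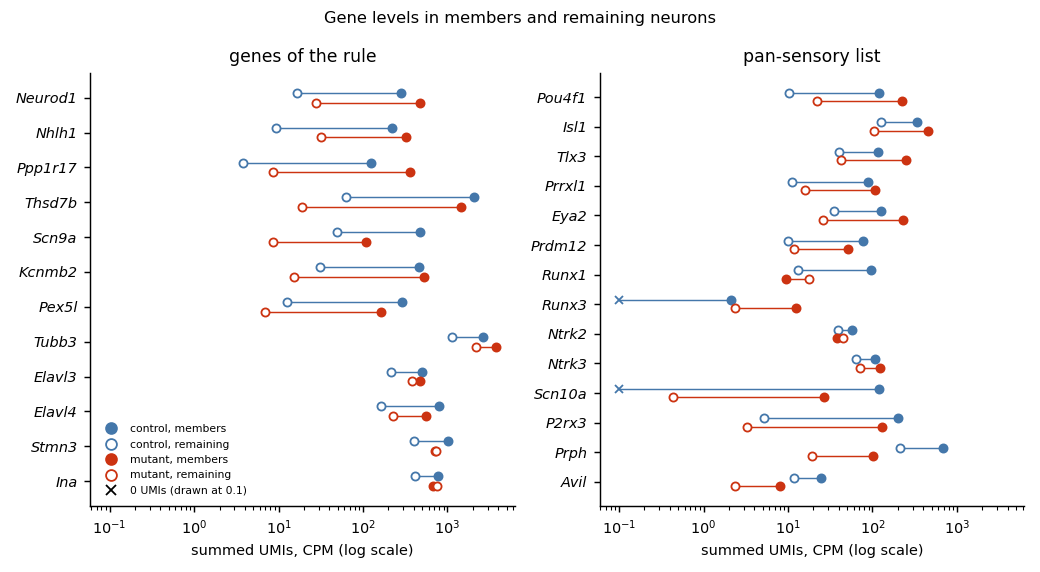
Summed UMIs in CPM (x axis, log scale) of the 12 genes of the rules (left) and of 14 of the 16 pan-sensory genes (right) in members (filled) and remaining neurons (open) of the control (blue) and mutant (red) library; a cross marks 0 UMIs. Filled points lie to the right of open points for most pan-sensory genes, with Runx1 and Ntrk2 reversed in the mutant library.

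Pou4f1, the POU factor of somatic sensory neurons, stood at 120 CPM in control members and 221 CPM in mutant members, against 10.4 and 21.9 CPM in the remaining neurons (log2 ratios of 3.53, 2.91 to 4.22, and 3.34, 3.04 to 3.65). Isl1, whose promoter drives Cre here, stood at 339 and 458 CPM in members and 127 and 103 CPM in the remaining neurons. Tlx3, a homeobox gene of glutamatergic sensory neurons, was at 118 and 249 CPM against 40.5 and 42.7 CPM. The homeobox gene Drgx, listed under its older symbol Prrxl1, was at 88.0 and 108 CPM against 11.3 and 16.1 CPM. Eya2, a placodal gene, followed the same order, at 125 and 228 CPM against 35.3 and 26.02 CPM. Ntrk3, the receptor of NT-3, differed less, with log2 ratios of 0.73 (0.44 to 1.03) and 0.76 (0.56 to 0.96). Ntrk2, the BDNF receptor, was higher in members in the control library (log2 ratio 0.56, 0.17 to 0.96), while the interval of the mutant library included 0 (-0.23, -0.54 to 0.07). UMIs of at least 5 of the 16 genes were found in 78 control members (69.6%, 60.2 to 78.0) and 152 mutant members (75.2%, 68.7 to 81.0), against 20 (17.9%) and 15 (5.12%) of the remaining neurons. The count was reached by 57 of 64 control and 130 of 140 mutant members with 5 to 7 rule genes and by 21 of 48 and 22 of 62 with 3 or 4, which were shallower (medians of 27010 and 20605 UMIs against 17875 and 13893). With the same cells thinned to 5000 UMIs it was reached by 44 of 64 and 96 of 139 against 14 of 48 and 7 of 60, and by 2 of 106 and 2 of 283 remaining neurons. These are descriptions, since the classes were chosen for detecting more genes.

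Among genes outside the rule with at least 100 CPM in 1 of the 4 sums, the 12 with the largest ratios included several of nociceptive and sensory neurons. Scn10a, the Nav1.8 channel, had 118 CPM in control members and 0 UMIs in the remaining control neurons, at least 83.8-fold higher against a floor of 3 UMIs with the members' count as measured (the lower limit of the log2 ratio with the error of both counts was 6.08), and 26.8 against 0.43 CPM in the mutant library. P2rx3, the ATP receptor of sensory endings, was at 200 and 131 CPM against 5.17 and 3.25 CPM. Pirt, a regulator of TRP channels, was at 144 and 60.9 CPM against 11.8 and 1.74 CPM. Isl2, the LIM homeobox partner of Isl1, was at 110 and 77.6 CPM against 3.29 and 1.30 CPM. Cdhr1, a cadherin-related gene, had 102 and 146 CPM in members, with 0 UMIs in the remaining control neurons (at least 72.1-fold higher against the same floor, lower limit of the log2 ratio 5.86) and 3.47 CPM in the mutant. The lincRNA D130009I18Rik, which lies on chromosome 14 (104612791 to 104966783, GRCm38), the chromosome of Pou4f1 (104461676 to 104467999), was at 964 and 450 CPM against 15.5 and 16.9 CPM. A further 5 genes were Ppp1r1c, Ccer2, Mreg, Cpne4 and Synpo, with log2 ratios between 3.87 and 5.84 in the control and between 4.08 and 8.90 in the mutant library. The sizes depended on the number of rule genes asked for: with at least 5, the control log2 ratio was 1.48 instead of 5.96 for D130009I18Rik, 2.58 instead of 5.27 for P2rx3 and 3.13 instead of 5.84 for Ppp1r1c.

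Pou4f1 was found in 61.6% of control and 71.8% of mutant members, and in 36.6% and 51.8% after thinning, against 1.56% and 2.30% of all filtered cells with fewer than 3 neuron genes (medians of 20581 and 17366 UMIs), and 0.319% and 0.670% of them after thinning. Within these, the share was 1.42% and 1.67% with 0 neuron genes and 1.80% and 3.32% with 1 or 2. At full depth most members had a UMI of Pou4f1, and after thinning most did in the mutant library. Phox2a, a homeobox gene of visceral and autonomic neurons, was at 48.2 and 32.7 CPM in members against 169 and 26.02 CPM, lower in the control library (log2 ratio -1.81, -2.10 to -1.52), while the interval of the mutant library included 0 (0.33, -0.03 to 0.69).

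Genes of several other kinds of neuron were lower in members. Of 10 tested genes of GABAergic forebrain and hypothalamic neurons, 6 were at least 2-fold lower in both libraries and 0 were higher; Dlx2 stood at 8.10 and 12.8 CPM in members against 51.7 and 87.8 CPM, whereas the GABA-synthesizing enzyme Gad2 was lower in the mutant library alone (26.05 and 9.85 CPM against 33.4 and 147 CPM). Of 10 tested sympathetic genes, 4 were lower in both libraries, including Hand2 (40.8 and 11.4 against 109 and 39.0 CPM) and the noradrenaline enzyme Dbh (21.8 and 21.9 against 135 and 50.1 CPM), and 1 was higher, Insm1. Lhx5, a factor of hindbrain and spinal interneurons, stood at 7.04 and 25.7 CPM in members against 28.7 and 90.9 CPM. Among motor neuron genes 2 of 7 were higher, Isl1 and Isl2, which sensory neurons also express, and Mnx1, which defines spinal motor neurons, was found in 0% of control and 0.5% of mutant members.

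Members expressed the genes of postmitotic neurons. Of 16 tested genes of mature neurons and synapses, 4 were at least 2-fold higher in both libraries and 0 lower; the neuronal nuclear antigen Rbfox3 stood at 155 and 181 CPM against 28.7 and 41.0 CPM, and the neurofilament gene Nefm at 1604 and 2365 CPM against 690 and 460 CPM. The list's median log2 ratio of 1.00 in the control library was 0.25 after thinning, and that of 0.69 in the mutant library was -0.059. Slc17a6, the vesicular glutamate transporter VGLUT2, was at 126 and 111 CPM in members against 32.0 and 76.6 CPM. Of 16 tested cell division genes, 5 were lower in both libraries and 0 higher, with Mki67 at 64.4 and 64.0 CPM in members against 160 and 119 CPM; medians of -1.06 and -0.88 were -0.21 and -0.057 after thinning. Of 13 tested neurogenesis genes, 4 were at least 2-fold higher in members in both libraries and 0 lower: Neurog1, the proneural factor of the somatic and otic lineages, reached 31.3 and 56.8 CPM against 3.76 and 10.4 CPM, and Nhlh2 156 and 317 CPM against 39.5 and 119 CPM.

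The 12 genes lowest in members against the remaining neurons were mostly those of muscle: Myl1, Acta2, Tnnt1, Ttn, Mylpf, Tpm2 and Myog. The summed level of the 15 branchial muscle genes was 281 and 297 CPM in members, 1130 and 1135 CPM in the remaining neurons, and 3493 and 3891 CPM in cells without neuron genes, with Actc1 the most abundant in each. After thinning, 6 of these 7 genes changed sign in at least 1 library, and Mylpf stayed below 0 in both (-1.97 and -0.37). Thinning came before the rules, so it also changed which cells were neurons and members. Depth and choice of cells were not separated for the 6. Without cells that carried 3 or more genes of another cell type, counted without the lists of muscle and cardiomyocyte genes, Myog (0.40) and Tpm2 (0.82) changed sign in the control library, and the other ratios stayed below 0. The other 5 were Sox2ot and Sox6, Apoe, which glia express, the imprinted gene Magel2, and Egfem1, with log2 ratios from -1.96 to -3.02. With at least 2 rule genes, the ratio of Apoe was 0.55 in the mutant library and that of Egfem1 was -0.29 in the control library, and after thinning Apoe was at -0.20 in the control library.

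The rule did not use the ratio between genotypes, but the levels of its genes differed between the libraries. It could therefore admit different kinds of cell in each. Of 4650 genes with at least 50 CPM in members of at least 1 library, 84 (1.81%) were at least 2-fold higher and 321 (6.9%) at least 2-fold lower in mutant than in control members. In the remaining neurons the shares were 2.73% and 4.22% of 4688 genes. Pik3ca, the gene whose activated form the mutant carries, stood at 49.3 CPM in control members and 44.7 CPM in mutant members, a log2 ratio of -0.14 (-0.46 to 0.18), and the transcript of the R26R allele could not be separated from the endogenous gene in these counts. Of 8 tested genes of PI3K subunits, lipid phosphatases and the AKT and mTOR kinases, 0 passed 2-fold.

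Of 13 tested neurogenesis genes outside the rule, 12 had a higher level in mutant than in control members, 2 of them by at least 2-fold, and 1 was at least 2-fold lower. Dll3, a Notch ligand of newborn neurons, was at 13.4 CPM in control and 75.2 CPM in mutant members, a log2 ratio of 2.49 (2.00 to 3.02), and at 7.997 and 46.4 CPM in the remaining neurons, so both kinds of neuron had it. Nhlh2 had a log2 ratio of 1.02 (0.87 to 1.18). Neurod4 was detected in 3.6% of control and 24.8% of mutant members, and in 1.8% and 14.1% after thinning, against 0.1% of mutant cells without neuron genes. Over 17 neurogenesis genes the median was 0.80, against -0.08 for all genes, and 1.00 in the remaining neurons. The gene that was lower was Neurod6 (log2 ratio -4.65, -5.81 to -3.69). Set against the female-like control members, female-like and male-like mutant members had log2 ratios of 2.54 and 2.52 for Dll3. Among the rule genes, the log2 ratio was 1.56 for Ppp1r17, 0.75 for Neurod1 and -2.14 for Scn9a. Membership depended on these genes, so their ratios are a description and support no direction.

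**Figure D3:**
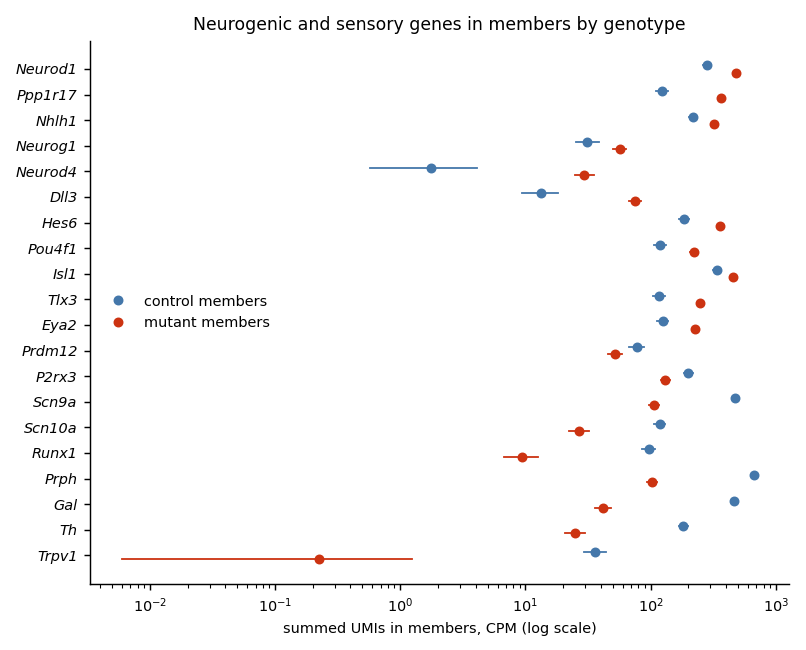
Summed UMIs in CPM (x axis, log scale) of neurogenic, sensory and nociceptor genes in the 112 control (blue) and 202 mutant (red) members, with exact Poisson 95% intervals for counting error. Genes down to Eya2 lie further right in the mutant, and genes from Prdm12 downwards lie further left. Neurod1, Ppp1r17, Nhlh1 and Scn9a belong to the rule and are shown as a description.

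The lists of sensory ganglia had members on both sides. Of 14 tested pan-sensory genes, 1 was at least 2-fold higher in mutant members and 4 were lower, with 7 above 0 and a list median of -0.20. Of 7 tested genes of the trigeminal and dorsal root ganglia, 1 was higher and 3 were lower, with a median of -0.87. The transcription factor genes Pou4f1 (log2 ratio 0.89), Tlx3 (1.08), Shox2 (1.02) and Eya2 (0.86) were above 0 with intervals clear of it. The genes described next were lower. Scn10a fell from 118 to 26.8 CPM, with a log2 ratio of -2.14 (-2.45 to -1.83). Runx1 was at 96.8 and 9.40 CPM (-3.37, -3.87 to -2.89) and had UMIs in 42.0% of control and 9.4% of mutant members, of which the mutant share lay below the 17.6% of cells without neuron genes. Trpv1 had 103 UMIs in control members and 1 in mutant members, 36.3 and 0.22 CPM (-7.34, -12.66 to -4.83). The neuronal intermediate filament Prph was at 677 and 103 CPM, with UMIs in 48.2% and 15.8% of members. Against the female-like control members, female-like and male-like mutant members were both lower, with log2 ratios of -4.04 and -3.04 for Runx1 and -2.91 and -2.16 for Prph. Fewer cells that express these genes and less of their RNA per cell cannot be told apart from the sums, and the shares of cells carry both. Scn9a, a rule gene of the nociceptive lineage, had UMIs in 39 of 48 control and 21 of 62 mutant members with 3 or 4 rule genes. Its part in which cells were admitted, and so in these values, was not tested.

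Grm7, Nwd2 and Gal were among the 8 largest falls of genes with at least 100 CPM. Few cells held most of their UMIs in each library. The 10 highest mutant cells held 69.2%, 85.1% and 73.3% of them. UMIs were found in 41.1%, 32.1% and 42.9% of control members and in 10.9%, 9.90% and 17.3% of mutant members. Grm7, a metabotropic glutamate receptor, was at 317 CPM in control members and 8.73 CPM in mutant members (log2 ratio -5.18, -5.69 to -4.72), and 10 control cells held 75.9% of its UMIs. Nwd2 was at 240.4 and 14.99 CPM (-4.003), and 10 control cells held 71.6% of its UMIs. The neuropeptide galanin (Gal) was at 468 and 41.8 CPM (-3.48, -3.71 to -3.26), with 71.9% of its control UMIs in 10 cells. Gabrg3, a GABA receptor subunit, and Luzp2 had log2 ratios of -4.06 and -3.49. The collagen genes Col1a1, Col1a2 and Col3a1, which fibroblasts and mesenchyme express, were the other 3 of the 8 largest falls, at 190, 128 and 225 CPM in control members and 5.37, 7.16 and 14.3 CPM in mutant members. The 12 mesenchyme genes summed to 855 CPM in control and 114 CPM in mutant members and to 3512 and 1321 CPM in cells without neuron genes; all 12 had UMIs in both sets of members, and their part in the other values was not tested. Without cells that carried 3 or more genes of another cell type, counted without the mesenchyme list, which holds these 3 genes, the log2 ratio of Col1a1 (-5.15) was -1.78, that of Col3a1 (-3.98) was -1.24 and that of Col1a2 (-4.16) was -2.52. With at least 2 rule genes as the threshold they were -2.23, -2.53 and -2.35.

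Channel, receptor and guidance genes were mostly below 0. Of 11 tested potassium channel genes, 8 were at least 2-fold lower and 0 higher, among them Kcnj3 (59.5 and 10.3 CPM, log2 ratio -2.53), Kcnma1 (-1.74) and Kcnd2 (-1.56), and the list's median was -0.69 in members and -0.45 in the remaining neurons. Of 9 tested calcium and HCN channel genes, 4 were lower and 0 higher, including the L-type subunit Cacna1c (205 and 49.2 CPM, -2.06); their median was -0.83 in members and 0.46 in the remaining neurons, a gap that was not tested. Of 3 tested sodium channel genes outside the rule, Scn7a (-2.94) and Scn10a were lower. Glutamate transmission genes were lower for 5 of 10, including the AMPA receptor subunit Gria1 (55.6 and 7.16 CPM, -2.96, -3.55 to -2.40). Of 28 tested axon guidance genes, 5 were lower, including the semaphorin receptor Nrp1 (276 and 59.3 CPM, -2.22) and Sema6d (1019 and 323 CPM, -1.66), and 0 were higher. The artemin co-receptor Gfra3 was at 147 and 30.9 CPM (-2.25) and the mechanotransduction channel Piezo2 at 77.4 and 18.4 CPM (-2.08); Piezo2 was also found in 36.0% and 30.7% of cells without neuron genes, above the 23.2% and 10.9% of members. Genes of mature neurons had a median of -0.21, with 2 of 16 lower, including Syt1 (-1.10), and 0 higher.

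**Figure D4:**
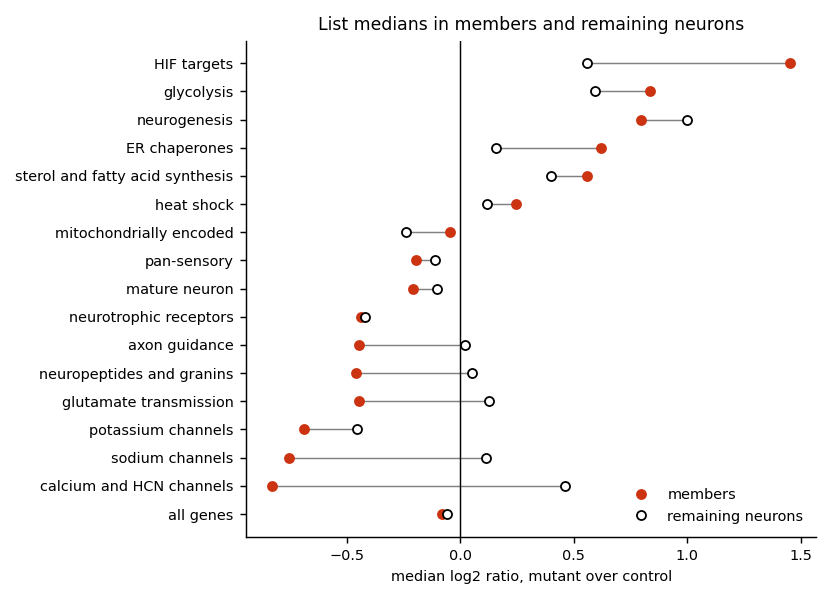
Median log2 ratio of mutant over control (x axis) for 16 gene lists and all genes, in members (filled) and remaining neurons (open). Lists of other cell types are not drawn. In members some of them lay further from 0 than any list drawn, such as cardiomyocyte (2.64), endothelial (1.62) and mesenchyme (-3.69) genes. HIF target genes stand at 1.46 in members and 0.56 in remaining neurons, and ion channel lists lie at -0.69 to -0.83 in members, with all genes at -0.08.

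Targets of the hypoxia-inducible factors (HIF) and enzymes of glycolysis were higher in mutant members. Of 19 tested HIF targets outside glycolysis, 13 were at least 2-fold higher and 0 lower, and 18 were above 0, with a list median of 1.46 in members and 0.56 in the remaining neurons. Slc16a3, the lactate exporter MCT4, was at 8.45 CPM in control and 140 CPM in mutant members (log2 ratio 4.05, 3.47 to 4.71), with UMIs in 17 of 112 (15.2%) and 143 of 202 (70.8%) members, and in 4.5% and 41.7% after thinning. The mitophagy gene Bnip3 was at 44.7 and 243 CPM (2.44, 2.18 to 2.72), the glucose transporter Slc2a1 (GLUT1) at 19.7 and 113 CPM (2.52, 2.12 to 2.94) and the vascular growth factor Vegfa at 22.2 and 74.7 CPM (1.75, 1.36 to 2.17). Of 13 tested glycolytic genes, 8 were at least 2-fold higher and 0 lower, with a median of 0.84 in members and 0.59 in the remaining neurons. Ldha, lactate dehydrogenase A, was at 324 and 1326 CPM (2.03, 1.93 to 2.13) and the aldolase gene Aldoa at 310 and 1102 CPM (1.83, 1.73 to 1.93). Hk1 (-0.01), Ldhb (-0.08) and Pfkp (-0.28), whose products serve glycolysis in many neurons, lay near or below 0.

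Several of these genes were higher in both sex classes of the mutant library, and some HIF targets were higher in 1 of them. Over the female-like control members, female-like and male-like mutant members had log2 ratios of 2.00 and 1.92 for Ldha, 1.67 and 1.72 for Aldoa, 3.996 and 4.096 for Slc16a3, 2.10 and 2.35 for Bnip3 and 1.03 and 1.09 for Pkm. Slc2a1 had 1.58 (1.10 to 2.07) and 2.35 (1.91 to 2.81), both below the ratio over all members. Vegfa, at 1.42 (0.96 to 1.89) and 1.55 (1.09 to 2.01), lay below its own as well. So did both ratios of Ldha, Aldoa and Bnip3, while those of Slc16a3 lay on both sides. Slc2a1 stood at 267 CPM in the 33 mutant members of neither class, where 11 endothelial genes summed to 940 CPM against 57.8 and 63.3 CPM in the female-like and male-like cells. The part of these 33 cells and of such transcripts in the ratios was not tested. Ero1l, an oxidase of the endoplasmic reticulum, had 0.05 (-0.44 to 0.53) in female-like and 1.12 (0.72 to 1.53) in male-like cells, and the prolyl hydroxylase gene Egln3 had -0.04 (-1.01 to 0.90) and 1.30 (0.56 to 2.07). The median of the HIF list was lower in female-like cells, at 0.55 over 29 genes against 1.25 over 32 in male-like cells. Both HIF medians lay below the 1.46 over all members, which include the 33 of neither class. Glycolysis had 0.81 and 0.82. These genes also differed between libraries outside neurons: in cells without neuron genes, Ldha was at 822 and 1975 CPM, Slc16a3 at 25.6 and 172 CPM and Bnip3 at 42.4 and 299 CPM. The order against the remaining neurons turned with genotype. Ldha was lower in members than in remaining neurons in the control library (log2 ratio -0.71, -0.83 to -0.58) and higher in the mutant library (0.69, 0.63 to 0.75), as were Slc16a3 (-1.16 and 0.89) and Aldoa (-0.55 and 0.41). Free RNA from other cells would enter all neurons of a library, and its share in these values was not tested; Actc1, a muscle transcript, stood at 181 and 227 CPM in members and at 1847 and 2651 CPM in cells without neuron genes.

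**Figure D5:**
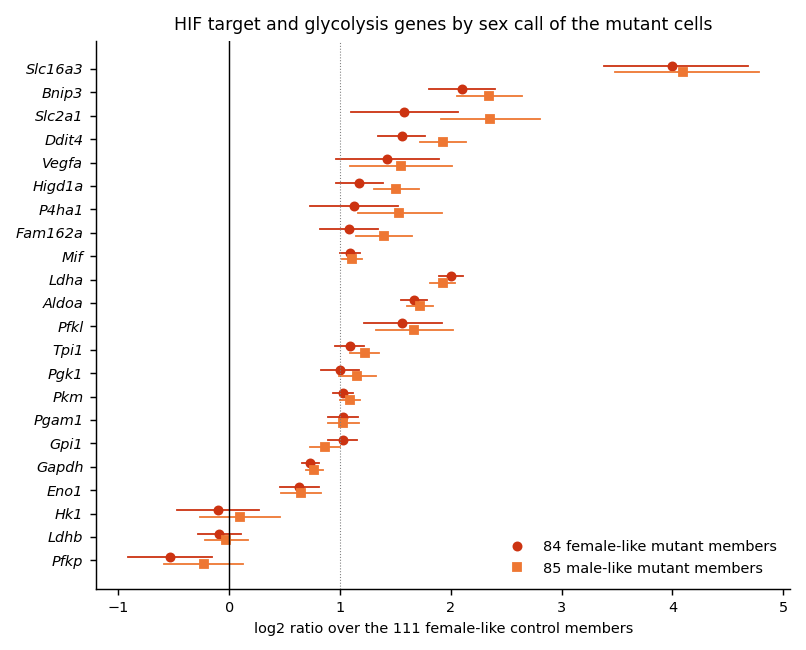
Log2 ratio (x axis) of 22 HIF target and glycolysis genes in 84 female-like (circles) and 85 male-like (squares) mutant members over the female-like control members, with 95% counting intervals. Slc16a3 is at 3.996 and 4.096 and Ldha at 2.00 and 1.92, while Hk1, Ldhb and Pfkp lie near or below 0.

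The promoters of the higher genes were searched for ACGTG or GCGTG, the core of the hypoxia response element, on both strands. Of the 21 HIF target and glycolysis genes that were at least 2-fold higher, 19 had RefSeq promoters, in 26 windows, of which 19 (73.1%) held a match, as did 43.8% of all windows. The share was also 70% (7 of 10 windows, from 8 genes) among the 12 genes highest in members over remaining neurons. Among the rule genes it was 40% (2 of 5 windows). Neither set was chosen for hypoxia. Windows this few do not show whether a high share is particular to the HIF and glycolysis genes. Matches in 4 of the genes described above are shown, each with 10 bases before and after the core, which is in capitals. They are from RefSeq promoters of GRCm38.p6, at chr11:120949030-120949054 (plus strand, 27 bases before the start site) for Slc16a3, chr4:119108699-119108723 (plus, 36 bases) for Slc2a1, chr7:46845747-46845771 (plus, 47 bases) for Ldha and chr7:138909599-138909623 (minus, 107 bases) for Bnip3. A match shows that the letters are present and not that a factor binds there.
Slc16a3: ggcagcggtgACGTGcgcgggggac
Slc2a1: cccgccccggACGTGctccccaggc
Ldha: cccagcctacACGTGggttcccgca
Bnip3: cacgcgccgcACGTGccacacgctc

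Among genes with at least 100 CPM, the remaining 3 of the 8 largest rises were Gm16104, Ass1 and Pdlim4. Gm16104, an antisense transcript on chromosome 10 (81409575 to 81411579, GRCm38), was at 14.1 and 115 CPM (log2 ratio 3.02, 2.56 to 3.53), and whether strand was used in counting is not given in the sources used here. Ass1, argininosuccinate synthase of the arginine pathway, was at 22.2 and 123 CPM (2.47, 2.09 to 2.87) and had a log2 ratio of 0.22 (-0.40 to 0.89) in the remaining neurons. Pdlim4, a cytoskeletal adaptor, was at 28.9 and 119 CPM in members (2.04, 1.70 to 2.39) but at 65.4 and 30.4 CPM in the remaining neurons (-1.11, -1.46 to -0.76).

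Sterol synthesis and endoplasmic reticulum chaperone genes were higher by smaller amounts. Of 22 tested sterol and fatty acid synthesis genes, 3 were at least 2-fold higher, 21 were above 0 and 0 were lower by 2-fold: Insig1, the sterol sensor partner of SREBP, had a log2 ratio of 1.16 (0.87 to 1.46), Msmo1 1.11 (0.90 to 1.33) and Dhcr7 1.07 (0.78 to 1.38). The list's median was 0.56 in members and 0.40 in the remaining neurons, and 0.63 and 0.49 in female-like and male-like mutant members over female-like control members. All 14 tested chaperone genes were above 0, with a median of 0.62 in members and 0.16 in the remaining neurons; Manf reached 1.02 (0.88 to 1.17) and Hspa5 (BiP) 0.75. Among cytosolic heat shock genes only the stress-inducible pair Hspa1a (4.22 and 96.0 CPM, 4.51, 3.69 to 5.47) and Hspa1b (5.28 and 96.9 CPM, 4.20, 3.46 to 5.05) passed 2-fold of 14 tested. Both were also higher in cells without neuron genes, at 41.5 and 414 CPM for Hspa1a, and were found in a smaller share of mutant members (37.6% for Hspa1a) than of those cells (50.2%).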

How the data were processed

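The authors aligned and counted the reads with Cell Ranger 7.1.0 on genome build mm10, per the labels, and deposited raw counts (UMIs per gene and cell, 32285 features) as 1 matrix per library. The study's limits were applied, that is, a detected gene number above 2000 and below 9000 and a mitochondrial share under 10%. Doublets were kept. Some genes are not reported here. The members and the 52 gene lists were chosen with earlier results of these data known. Deposited counts were summed over the cells of a set and scaled to CPM. Drgx is listed as Prrxl1, and 40 identifiers share a symbol with another.

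With 1 library per genotype and 3 pooled embryos in each, no test was fitted. Poisson intervals (CPM), conditional binomial intervals (ratios of sums) and Clopper-Pearson intervals (shares) at 95% cover counting error only, and are narrower than the spread between cells. Genes with at least 50 CPM in 1 of the sums compared were counted as past 2-fold; list medians took genes with at least 20 UMIs over both sums. A floor of 3 UMIs or cells replaced a count of 0. Named genes were the rule genes, the 12 highest and 12 lowest of members over remaining neurons (ranked by the weaker library), the 8 largest rises and falls between genotypes, each with at least 100 CPM and an interval beyond 1.5-fold, and examples of each list, the most abundant and the largest and smallest ratios. Shares of cells with a UMI were repeated after thinning to 5000 UMIs.

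Gene positions were from GENCODE on GRCm38 and promoter windows from RefSeq (GRCm38.p6). Alternatives were the rule threshold, the neuron definition, the mitochondrial limit, thinning, the filter on low values, TMM (edgeR 4.0.16 in R 4.3.3) or median-ratio scaling, averaging over cells, female-like cells alone, and leaving out cells with genes of another type; at least 5 rule genes, at least 5 pan-sensory genes, thinning within members, and leaving out cells by the lists of other tissues than the gene's own were added after the data were seen. Sums and intervals were computed with scipy 1.17.1 and pandas 2.3.3 on numpy 2.4.6 (Python 3.11.15), and figures drawn with matplotlib 3.10.9. In counts simulated for the mutant over control comparison in members (10970 genes), the intervals held the true ratio for 97.0% of 200 changed genes and 95.8% of unchanged genes. This coverage checks the calculation for counting error alone, which is the error that the intervals assume. It does not show that the intervals hold for the measured cells, where UMIs of some genes lay mostly in few cells. It also says nothing about differences between embryos or libraries, which 1 library per genotype cannot measure.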

Additional observations from a re-analysis of the deposited data

Results flagged for a closer look

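Several genes had opposite signs in the libraries or in the kinds of neuron, and none of these differences was tested, since there is 1 library per genotype. On the log2 scale, members over remaining neurons stood at -0.71 in the control and 0.69 in the mutant library for Ldha, at -0.55 and 0.41 for Aldoa and at -1.16 and 0.89 for Slc16a3, so these 3 genes went from below to above the remaining neurons. Slc2a1 was below in both (-1.49 and -0.25), and the control interval of Bnip3 included 0. The ratio turned the other way for the glutamate receptor gene Grm7 (3.35 and -1.52), Gabrg3 (1.46 and -1.01), Luzp2 (0.82 and -1.20), Runx1 (2.88 and -0.92) and the tyrosine hydroxylase gene Th (1.23 and -1.26). Pdlim4 went from -1.18 to 1.97.

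Mutant over control had opposite signs in members and remaining neurons for a further set. The log2 ratio was 0.43 in members and -0.30 in remaining neurons for Isl1, 0.86 and -0.44 for Eya2, and 0.19 and -1.01 for Kcnmb2, which is a gene of the rule. Pdlim4 stood at 2.04 and -1.11. The remaining neurons are a mixture whose makeup also differed between the libraries, with UMIs of at least 3 forebrain genes in 27 of 112 control and 110 of 293 mutant cells, and its part in these values was not tested.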

How the results depend on the processing

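No paired analysis was possible because each genotype has 1 library. Of the summary values recomputed under the alternatives, 182 kept their direction and size, 38 moved and 2 reversed. Neither scaling moved any of them, and the median of all genes for mutant over control in members was -0.08, or 0.02 with TMM and -0.01 with the median ratio. The share of members among control neurons (50%) was 62.1%, 37.9% and 28.6% with at least 2, 4 and 5 rule genes and 58.1% with at least 4 neuron genes, and that among mutant neurons (40.8%) was 52.9%, 33.3% and 28.3% with at least 2, 4 and 5, 33.3% after thinning and 34.0% in female-like cells. The share with Pou4f1 was 36.6% and 51.8% in control and mutant after thinning, and 79.7% and 85.7% with at least 5 rule genes.

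Genes higher in members in both libraries (207) numbered 129 with at least 100 CPM and 1300 with no filter. Those lower (130) numbered 226 after thinning, 60, 1227 and, with at least 5 rule genes, 218. Genes higher in mutant members (84) numbered 200 after thinning, 47 and 3413, and those lower (321) 596, 184 and 3936. The sensory median in the mutant library (2.48) was 3.54 in female-like cells, and the HIF median (1.46) was 0.55 in female-like cells. The cell division median was -0.46 in the control library with at least 4 neuron genes, -0.21 after thinning, -0.64 without cells with genes of another type, -0.75 as a mean over cells and -0.83 with at least 5 rule genes, and in the mutant library -0.057 after thinning, 0.090 (a reversal without cells of another type) and -0.38 as a mean. The median of mature neuron genes was 0.51 in the control library with at least 4 neuron genes, 0.25 after thinning, 0.57 without cells of another type and 0.60 as a mean, and reversed to -0.059 after thinning in the mutant library.

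Reversed genes of members over remaining neurons after thinning were Acta2 (0.26), Tnnt1 (0.35), Tpm2 (1.13) and Ttn (2.16) in the control and Myl1 (0.42), Myog (0.16), Tpm2 (0.25) and Ttn (0.52) in the mutant library. Without cells of another type, a filter whose lists hold several of these genes, they were Myog (0.96) and Tpm2 (0.67) in the control and Mylpf (0.18) and Tpm2 (0.72) in the mutant library, and with the lists of muscle and cardiomyocyte genes not used, a choice made after seeing the data, Myog (0.40) and Tpm2 (0.82) in the control library. Tnnt1 was 0.38 with at least 4 neuron genes, and in the mutant library Apoe was 0.55 with at least 2 rule genes and, in female-like cells, Mylpf was 0.62 and Ttn 1.06. Col1a1, mutant over control, was 0.25 without cells of another type, where the filter removes cells for collagen genes themselves, and -1.78 with the mesenchyme list not used. The cause was not tested in any of these. With 1 library per genotype no depth of sequencing can separate genotype from litter, and genes under 50 CPM were too shallow to count.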

Other observations

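Of 12 tested mitochondrially encoded genes, 0 passed 2-fold and the median log2 ratio of mutant over control was -0.04. Of 8 tested FOXO target genes 0 passed 2-fold, with a median of -0.04, and of 13 tested immediate early genes 1 was lower and 0 higher, with a median of -0.03. Over all tested genes 1.81% were at least 2-fold higher and 6.9% lower, so the counts of these short lists lie near those shares. Other lists lay mostly below 0. Among 13 tested neuropeptide and granin genes 1 was above 0 and 3 were at least 2-fold lower, Gal, Npy (-2.61) and Pomc (-2.99), and 0 were at least 2-fold higher. Of 13 tested neurotrophic receptor genes 3 were above 0, 4 were lower, including Gfra3 (-2.25) and Kit (-1.74), and 0 were at least 2-fold higher. Of 8 tested olfactory and vomeronasal genes 1 was above 0 and 3 were lower, Lhx2 (174 and 41.8 CPM), Gng8 (135 and 40.7 CPM) and Fezf1 (58.1 and 8.50 CPM), which mark immature neurons of the nasal epithelium, and 0 were at least 2-fold higher.

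Genes of endothelium differed in the opposite way from those of mesenchyme. Their summed level was 82.4 CPM in control and 215 CPM in mutant members, and 497 and 1907 CPM in cells without neuron genes, with UMIs of at least 3 of the genes in 2 of 112 control and 29 of 202 mutant members. The higher level was not found in either sex class of the mutant members: it was 57.8 CPM in the 84 female-like and 63.3 CPM in the 85 male-like cells, against 83.2 CPM in the 111 female-like control members, and 940 CPM in the 33 mutant members that neither class held. Most of these 33 cells had UMIs of both Xist and a Y-linked gene, and the part of doublets in these values was not tested. Cardiomyocyte genes had a median log2 ratio of mutant over control of 2.64 (0.52 to 4.43) in members, over 9 genes. At least 3 genes of that list had UMIs in 7 of 112 control and 18 of 202 mutant members. Schwann cell genes summed to 366 and 196 CPM in members, with at least 3 genes in 22 and 38 cells. A further 18 control and 13 mutant cells outside the limits on genes and mitochondrial UMIs met both gene rules, and 12 and 14 filtered cells had at least 3 rule genes but fewer than 3 neuron genes.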
